A study of Mus musculus with 20 samples.

Results

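In mouse descending thoracic aorta, 1 week of β-aminopropionitrile (BAPN) was compared with water. The libraries described here are 10 of the 20 RNA-seq libraries of the study, chosen by their labels: 5 of descending aorta with BAPN and 5 of descending aorta with water. All mice were C57BL/6J, and no transgene or deletion is named. The other 10 libraries hold ascending aorta under the same treatments, and they enter here for the shared estimate of spread and for 1 comparison of regions. The dose of BAPN, the age and sex of the mice and the hour of collection are not given in the sources used here. The labels do not say whether the libraries came from separate animals, so p-values measure only the spread between these samples, which may be technical.

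BAPN is a small nitrile that irreversibly blocks lysyl oxidases. These copper enzymes oxidise lysines of tropoelastin and collagen so that the fibres cross-link, and BAPN given to young mice is a known way to produce aortic aneurysm and dissection. The aortic media is built of smooth muscle cells anchored to elastic lamellae through integrins and focal adhesions. Those cells make the matrix, sense its tension and keep a circadian clock of their own.

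Among called genes of at least 5 CPM, pseudogenes aside, 2 genes of the circadian clock had the largest differences in descending aorta. The activator Arntl was 3.78-fold higher under BAPN and the output factor Dbp 4.82-fold lower. Genes of cell division fell as a group, with 22 of 25 mitotic genes lower. Several genes of the contractile apparatus and of focal adhesions rose by modest amounts, among them Acta2 and Tln1. Lox, which encodes a target of the drug, was 1.19-fold higher, and the elastic fibre genes Fbln5 and Mfap4 fell.

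Raw counts were tested with the quasi-likelihood method of edgeR in 1 model over all 20 libraries. Levels are counts scaled to library size and between libraries (CPM), given as mean ± SD over 5 libraries (n = 5 in each group), and differences are log2 ratios of BAPN to water with their standard error (SE). A gene was called when its p-value, adjusted by the Benjamini-Hochberg method over the 15543 genes tested, was under 0.05. Of these genes 1667 were called (10.7%), 961 higher (6.18%) and 706 lower (4.54%). With upper-quartile scaling in place of TMM factors, the split was 706 higher and 874 lower. Most differences were small, with a median size of 0.28 on the log2 scale among called genes. Differences of at least 1.5-fold were mostly decreases, with 63 genes higher and 247 lower, and those of at least 2-fold numbered 18 higher and 95 lower. Of these 95 genes 17 were pseudogenes. Among 401 pseudogenes tested 34 were called, 33 of them lower, and the pseudogene level also divided the water libraries, as given below. A mean under 5 CPM was found for 233 called genes. The libraries of the groups did not overlap for 950 called genes, and 7.38% of all genes tested showed such separation. With each of the 10 descending libraries left out in turn, 928 genes kept their call every time. Counts of called list members below stand beside the shares over all genes tested, 6.18% higher and 4.54% lower. The lists were chosen with earlier results known. Of 988 genes tested in lists other than those of cell types and position, 220 were called.

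**Figure D1:**
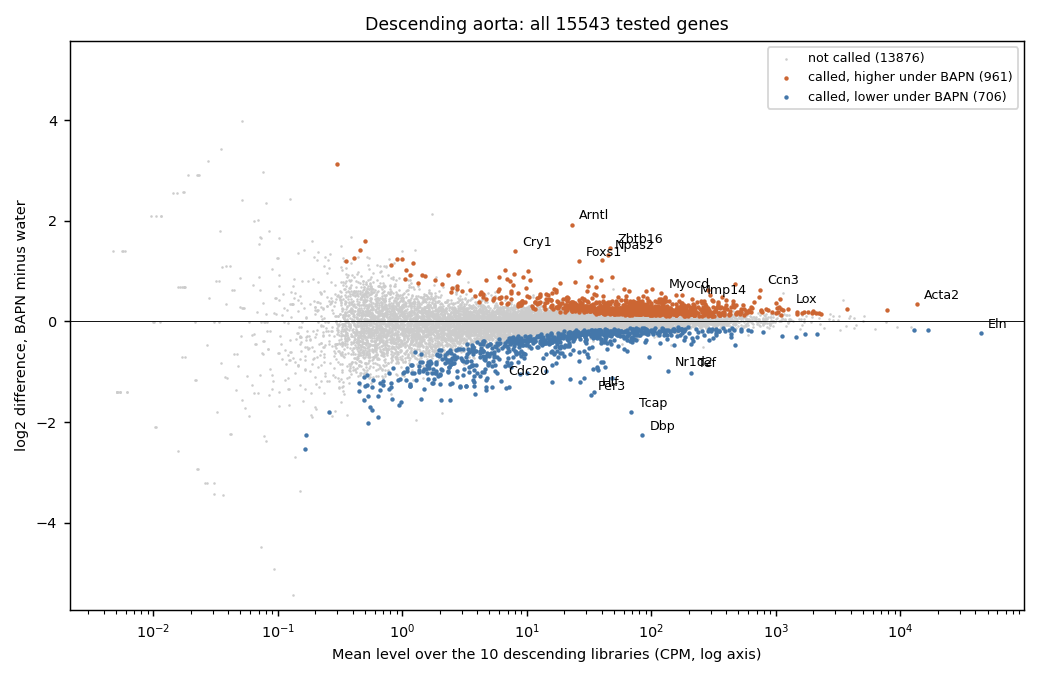
Each point is 1 of 15543 tested genes, with its mean level over the 10 descending libraries (CPM, log axis) against its log2 difference, BAPN minus water. The 961 genes called higher and the 706 called lower are coloured, and past 2-fold there are 18 higher and 95 lower genes. Of these 95 genes 17 are pseudogenes.

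Descending libraries held 16.4 M to 21.5 M counts. On the first principal component of the 10 libraries (19.54% of the variance) the 5 water libraries lay apart from the 5 BAPN libraries. Another division ran across the groups. Over 33 pseudogenes, water libraries 1, 2 and 5 had higher levels, and water libraries 3 and 4 and all 5 BAPN libraries had lower ones. In descending aorta summed erythroid transcripts went with it. They were at 628.6, 663 and 858 CPM in water libraries 1, 2 and 5 and at 331 and 293 CPM in water libraries 3 and 4. Under BAPN they were at 281 to 481 CPM. In ascending aorta all 5 BAPN libraries and water libraries 4 and 5 had the higher pseudogene level. Erythroid sums there were 171 to 570 CPM with BAPN and 209 to 828 CPM with water. To measure the BAPN difference without this division, a further fit used the 7 descending libraries of lower pseudogene level alone, 2 with water and 5 with BAPN. There 430 genes were called (2.87%), 218 higher (1.45%) and 212 lower (1.41%). Of these 406 were also called over all libraries, all in the same direction, which is 94.4% of the smaller list and 24.4% of the larger. With the pseudogene level as a term over all 20 libraries, 1126 genes were called (7.24%). The 7 libraries hold 2 with water, so a gene not called there may differ by as much as over all libraries. Within the 7 libraries 1 pseudogene was called, against 34 over all libraries. These libraries were chosen by their pseudogene level, so this drop cannot measure a difference of pseudogenes between BAPN and water. The regional label was checked on Hox genes, whose summed level was 232 to 310.3 CPM in descending and 67.9 to 91.9 CPM in ascending libraries. Of 6 smooth muscle cell markers 1 was called, Acta2, which rose, and 3 lay above and 3 below 0 (median 0.020). The markers include Tagln, at a mean of 56.4 CPM with water, whose reads may be undercounted (not tested). In bulk tissue, more cells of a type and more RNA per cell cannot be told apart.

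The transcript of the blocked enzyme was higher. Lox (ENSMUSG00000024529, GRCm38 chromosome 18, 52516067 to 52529867), the main vascular lysyl oxidase, stood at 1043, 1198, 1174, 1094 and 1225 CPM in water libraries 1 to 5. Under BAPN it stood at 1301, 1365, 1286, 1462 and 1414 CPM. Every BAPN library was above every water library, and the log2 difference was 0.25 (SE 0.051, adjusted p = 0.00178). It was 0.26 within the 7 libraries (adjusted p = 0.042). Loxl4, a low-abundance family member, was called lower, from 16.6 ± 1.88 to 13.2 ± 1.61 CPM (log2 -0.33, adjusted p = 0.0383). The elastin-directed relative Loxl1 was at 822 ± 47.3 and 819 ± 35.1 CPM, Loxl2 at 121 ± 9.24 and 113 ± 9.09 CPM and Loxl3 at 87 ± 3.82 and 84.5 ± 5.53 CPM with water and BAPN, and none of them passed the test. The call of Loxl4 was lost without water libraries 2 or 4 or BAPN libraries 3, 4 or 5 (adjusted p up to 0.134). The fit of the 7 libraries did not call Loxl4.

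Elastic fibre genes were lower where they passed the test. Of 18 elastic fibre genes 4 fell (Fbln5, Mfap4, Mfap5 and Eln) and none rose, beside 4.54% lower and 6.18% higher among all genes tested. Their median was -0.067 against -0.000267 for all genes tested. Fbln5, a fibulin that tethers elastin to cells and microfibrils, was at 1199, 1193, 1249, 1244 and 1215 CPM with water and at 949, 995, 977, 1010.2 and 1072 CPM with BAPN. The groups were clearly apart, with a difference of -0.29 (SE 0.037, adjusted p = 1.25e-05) and of -0.32 within the 7 libraries. Mfap4, a microfibril-associated glycoprotein, was at 1415, 1557, 1702, 1689.9 and 1668 CPM with water and 1247, 1317, 1293, 1287 and 1327 CPM with BAPN. The lowest water library was above the highest BAPN library (-0.31, SE 0.047, adjusted p = 7.67e-05). Mfap5, another microfibril glycoprotein, fell from 845 ± 33.4 to 728 ± 25.5 CPM. Eln itself (ENSMUSG00000029675, chromosome 5, 134702593 to 134747323), which encodes elastin, was at 41423, 45971, 51984, 51786 and 48204 CPM with water and 39101, 44694, 43714, 42641 and 33609.6 CPM with BAPN. Its groups overlapped, with the lowest level in BAPN library 5, and it differed by -0.23 (SE 0.067, adjusted p = 0.0247). The call of Eln was lost without water libraries 3 or 4 or BAPN libraries 1 or 5 (adjusted p up to 0.0786). Mfap5 and Eln did not pass within the 7 libraries of lower pseudogene level, at -0.22 (adjusted p = 0.0603) and -0.35 (adjusted p = 0.0581). With the pseudogene level as a term over all 20 libraries both were called, at -0.24 and -0.33.

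Collagen genes changed by small amounts and in both directions, beside 10.7% called among all genes tested. Of 10 fibrillar collagens 2 fell and none rose (median -0.071). Col3a1, a major collagen of the arterial wall, fell from 13504 ± 537 to 12046 ± 798 CPM, and Col27a1 from 47.6 ± 2.32 to 38.6 ± 4.86 CPM. Col1a1, the main chain of type I collagen, was at 7645 ± 574 and 7621 ± 618 CPM and did not pass. Among 25 collagen processing genes 4 fell and 1 rose (median -0.025). Sparc, a secreted collagen-binding protein, fell from 17682 ± 846 to 15732 ± 295 CPM (log2 -0.17). P3h2, a prolyl 3-hydroxylase of collagen, was the member that rose, from 20.3, 23.7, 23.7, 27.1 and 26.2 CPM to 41.5, 34.9, 35.3, 37.1 and 35.6 CPM. All BAPN libraries were above all water libraries (0.61, SE 0.088, adjusted p = 4.61e-05). Basement membrane genes were called higher in 7 of 20 cases over all libraries, among them the laminin chain gene Lama5 (0.22) and the collagen genes Col15a1 (0.22), Col4a1 (0.17), Col4a2 (0.19) and Col4a5 (0.16). None of them was called within the 7 libraries, where their median was 0.055, against 0.15 over all. The call of Col3a1 was lost without BAPN library 3 (adjusted p = 0.0538). That of Col15a1 was lost without water libraries 1 or 2 (adjusted p up to 0.0614). The call of Col4a1 was lost without water libraries 1, 2, 3 or 5 or BAPN libraries 1, 3 or 4 (adjusted p up to 0.147). That of Col4a2 was lost without water libraries 1, 2 or 3 or BAPN libraries 1, 3 or 4 (adjusted p up to 0.13). The call of Col4a5 was lost without water libraries 1, 2 or 3 or BAPN library 4 (adjusted p up to 0.0978). Not called within the 7 libraries were Col3a1, Col27a1, Lama5, Col15a1, Col4a1, Col4a2 and Col4a5. Col3a1 (-0.21) and Col27a1 (-0.38) differed by no less there, while Lama5 (0.10), Col15a1 (0.090), Col4a1 (0.042) and Col4a5 (0.092) differed by less.

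Matrix-remodelling genes changed one by one, beside 10.7% called among all genes tested. Of 30 matrix proteases 6 rose and 1 fell (median 0.0039; 2 higher and 0 lower within the 7 libraries). Mmp14, the membrane-anchored collagenase, was at 167, 159.8, 202, 199 and 172 CPM with water and 256, 242, 225, 255 and 249 CPM with BAPN. No library overlapped, and the difference was 0.45 (SE 0.056, adjusted p = 8.15e-06; 0.29 within the 7 libraries). Mmp3, stromelysin, rose from 35.8, 18.2, 26.1, 29 and 29.1 CPM to 44.7, 41.9, 44.8, 46.5 and 44.3 CPM (0.68, SE 0.10). Its BAPN libraries lay close together above a wider spread of water libraries. Plat, tissue plasminogen activator, rose from 61.8 ± 3.45 to 78.8 ± 1.55 CPM, and Serping1, the C1 inhibitor, from 412 ± 18.7 to 500.2 ± 37.8 CPM. They stood among 15 protease inhibitor and plasminogen genes, of which 3 rose, the third being the metalloproteinase inhibitor Timp4 (0.46). Matricellular genes were mixed, 5 higher and 3 lower of 18 (1 higher and 1 lower within the 7 libraries). Ccn3, a matricellular protein of the CCN family, went from 606, 578, 540.4, 590.2 and 605 CPM to 859, 851, 967, 949.8 and 887 CPM. The gap between the groups was wide (0.63, SE 0.048, adjusted p = 5.72e-09). Tenascin C (Tnc, 0.29) and fibronectin (Fn1, 0.20) also rose, and Cthrc1, a secreted collagen-repeat protein, fell by 0.42 on the log2 scale. The call of Timp4 was lost without water libraries 2 or 3 or BAPN library 5 (adjusted p up to 0.0731). The fit of the 7 libraries did not call Timp4 (0.52 there), Tnc (0.25), Fn1 (0.19) and Cthrc1 (-0.49).

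**Figure D2:**
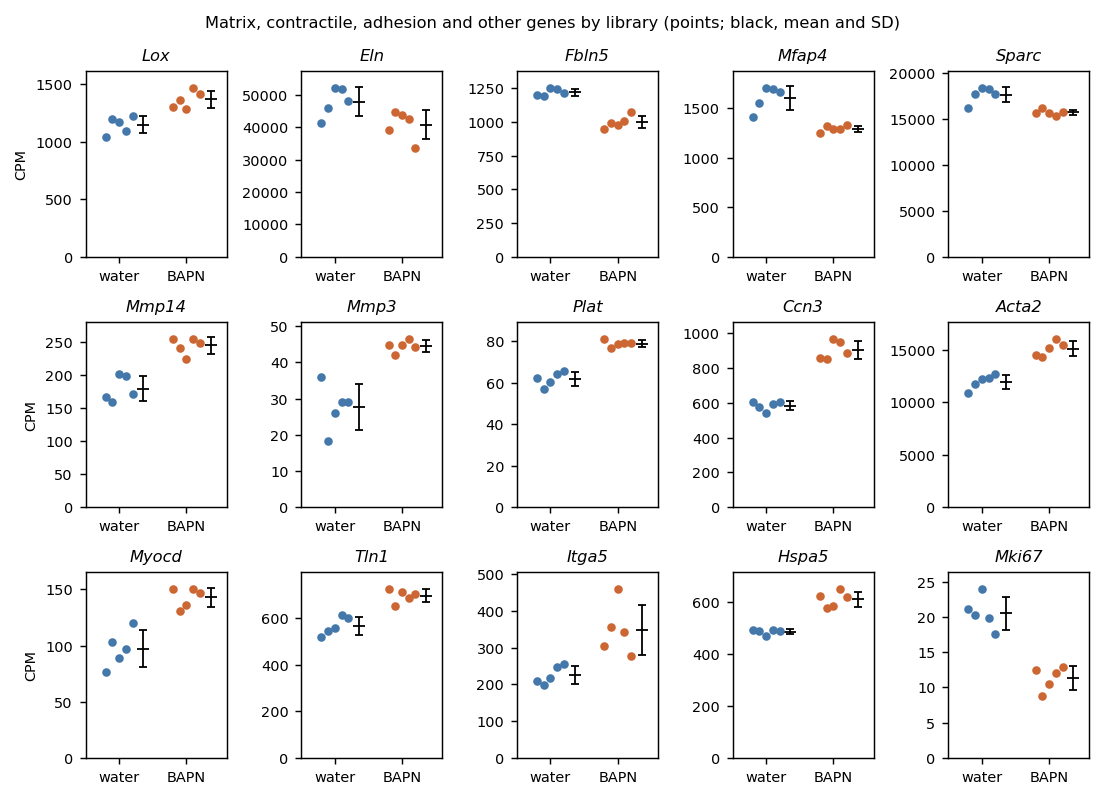
Each panel shows 1 gene in the 5 water and 5 BAPN descending libraries as points, in CPM from 0, with mean and SD in black. For Fbln5, Ccn3, Plat, Acta2, Hspa5 and Mki67 the groups do not overlap, while for Eln they do.

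Part of the contractile programme was higher. Of 31 smooth muscle contractile genes 11 rose and none fell (median 0.12), beside 6.18% higher and 4.54% lower among all genes tested. The fit of the 7 libraries called 2, with a median of 0.078. Acta2, smooth muscle α-actin (ENSMUSG00000035783, chromosome 19, 34241090 to 34255590), was at 10832, 11720.4, 12179, 12255 and 12640.4 CPM with water and 14454, 14314, 15147, 16033 and 15472 CPM with BAPN. All 5 BAPN libraries were above all 5 water libraries (0.34, SE 0.045, adjusted p = 1.77e-05; 0.30 within the 7 libraries, adjusted p = 0.0194). Nexn, an actin-binding protein, rose from 144 ± 10.6 to 191 ± 16.6 CPM, and Tpm1, a tropomyosin, from 1839.9 ± 27.6 to 2137 ± 84.9 CPM. Flna, a filamin that cross-links actin, rose from 7201 ± 398 to 8440.0 ± 314 CPM. Myh11, the smooth muscle myosin heavy chain, was at 4951 ± 367 and 5301 ± 387 CPM and did not pass. Tpm1 and Flna did not pass within the 7 libraries of lower pseudogene level.

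Regulators of smooth muscle genes were called in the same direction, beside 6.18% higher among all genes tested. Of 19 genes listed for myocardin, SRF and phenotype switching 5 rose and none fell (median 0.093; 3 higher within the 7 libraries). Myocd, the coactivator that drives smooth muscle genes through SRF, was at 76, 104, 89.3, 96.9 and 119.8 CPM with water and at 150.2, 131, 136, 149.9 and 147 CPM with BAPN. Its lowest BAPN library was above its highest water library (0.56, SE 0.082, adjusted p = 5.34e-05; 0.61 within the 7 libraries, adjusted p = 0.000606). Mrtfa, an actin-sensing SRF coactivator, rose by 0.25. Foxs1, a forkhead transcription factor, went from 18.4, 17.6, 17.8, 13.9 and 11.5 CPM to 50.8, 38.6, 30.6, 25.2 and 37 CPM. It was 2.30-fold higher, with a wide spread among BAPN libraries but no overlap. Calcium and cyclic nucleotide signalling had 8 genes higher and 1 lower of 29 (median 0.065; 3 higher and 1 lower within the 7 libraries). The kinases Rock1 and Rock2, which favour contraction, rose, Rock1 from 341 ± 40.2 to 459 ± 34.5 CPM and Rock2 from 237 ± 9.85 to 302 ± 16.4 CPM. Prkg1, the cGMP-dependent kinase that relaxes smooth muscle, rose by 0.30. The lower member was Rgs2, a brake on Gq signalling, at 41.1, 38.9, 32.9, 33.8 and 26.9 CPM with water and 22.8, 26.6, 24.2, 19.8 and 22.3 CPM with BAPN, again without overlap (-0.59, SE 0.10). Channels and pumps had 6 genes higher and 2 lower of 30. Within the 7 libraries 0 were called higher and 1 lower, and without 1 descending library at a time between 2 and 8 were called higher. P2rx1, an ATP-gated channel, fell by 0.37 on the log2 scale.

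Focal adhesion linkers had more members called higher than any other list, beside 6.18% among all genes tested. Of 28 tested, 14 rose and none fell (median 0.18); within the 7 libraries 3 were called, Enah, Flnc and Tln1 (median 0.15). Tln1, talin, which couples integrins to actin, was at 521, 547, 558, 614 and 599.9 CPM with water and 725, 654, 712, 689 and 706 CPM with BAPN, without overlap (0.30, SE 0.047, adjusted p = 0.000142). Enah, an actin-elongation factor, rose from 308 ± 25.8 to 433 ± 27.5 CPM (0.49), and Flnc, filamin C, from 227 ± 11.4 to 301 ± 26.5 CPM. Integrins had 6 genes higher and 1 lower of 18 (1 higher and 0 lower within the 7 libraries). Itga5, the α chain of the classical fibronectin receptor, was at 209, 198, 216, 246 and 254 CPM with water and 304, 355, 459, 343 and 278 CPM with BAPN. The BAPN libraries spread widely but all lay above the water libraries (0.63, SE 0.11, adjusted p = 0.000509). Itgb1, the shared β1 chain, rose by 0.16. Targets of YAP and TAZ, coactivators that respond to cell stretch, had 9 genes higher and 1 lower of 27 (median 0.16; 4 higher and 0 lower within the 7 libraries). Crim1, a membrane protein that binds BMPs, rose from 112 ± 2.73 to 149 ± 6.48 CPM. Tead1, the DNA-binding partner, rose by 0.38, the kinase Lats2 by 0.38 and Igfbp3, which binds insulin-like growth factors, by 0.80. Ccn1 was at 654 ± 255 and 545 ± 126 CPM and Ccn2 at 1359 ± 632 and 1806 ± 353 CPM, and these widely used YAP targets did not pass. Not called within the 7 libraries was Itgb1.

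Signalling pathways showed single members, beside 10.7% called among all genes tested. Of 31 TGF-beta pathway genes 4 rose and 2 fell (median 0.071; 3 higher and 0 lower within the 7 libraries). The type I receptor Tgfbr1 was at 136, 150.2, 147, 149 and 174 CPM with water and 176, 193, 190.5, 204 and 211 CPM with BAPN. Water library 5 came closest to the BAPN libraries, which were all higher (0.37, SE 0.059, adjusted p = 0.000172). The SMAD corepressor Skil (0.41), the latent TGF-beta anchor Lrrc32 (0.31) and the activin subunit Inhba (0.21) rose. In the Notch list 2 of 16 rose, the ligand Dll1 from 7.63 ± 1.24 to 13.4 ± 1.11 CPM and the coactivator Maml1 by 0.25. Agtr2, the type 2 angiotensin receptor, was called higher at a low level, 1.04 ± 0.437 and 1.98 ± 0.28 CPM. Of growth factors and receptors, Pdgfb fell by 0.40 and Gas6 by 0.19 on the log2 scale, and Egfr and Igf1r rose by 0.26 and 0.25. The secreted Wnt inhibitor Wif1 fell from 39.3 ± 2.57 to 27.6 ± 1.75 CPM, and the adenosine receptor Adora1 from 9.58 ± 1.39 to 5.85 ± 0.787 CPM. The call of Agtr2 was lost without water libraries 2, 3 or 4 (adjusted p up to 0.0672). The fit of the 7 libraries did not call Inhba, Maml1, Egfr and Igf1r.

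**Figure D3:**
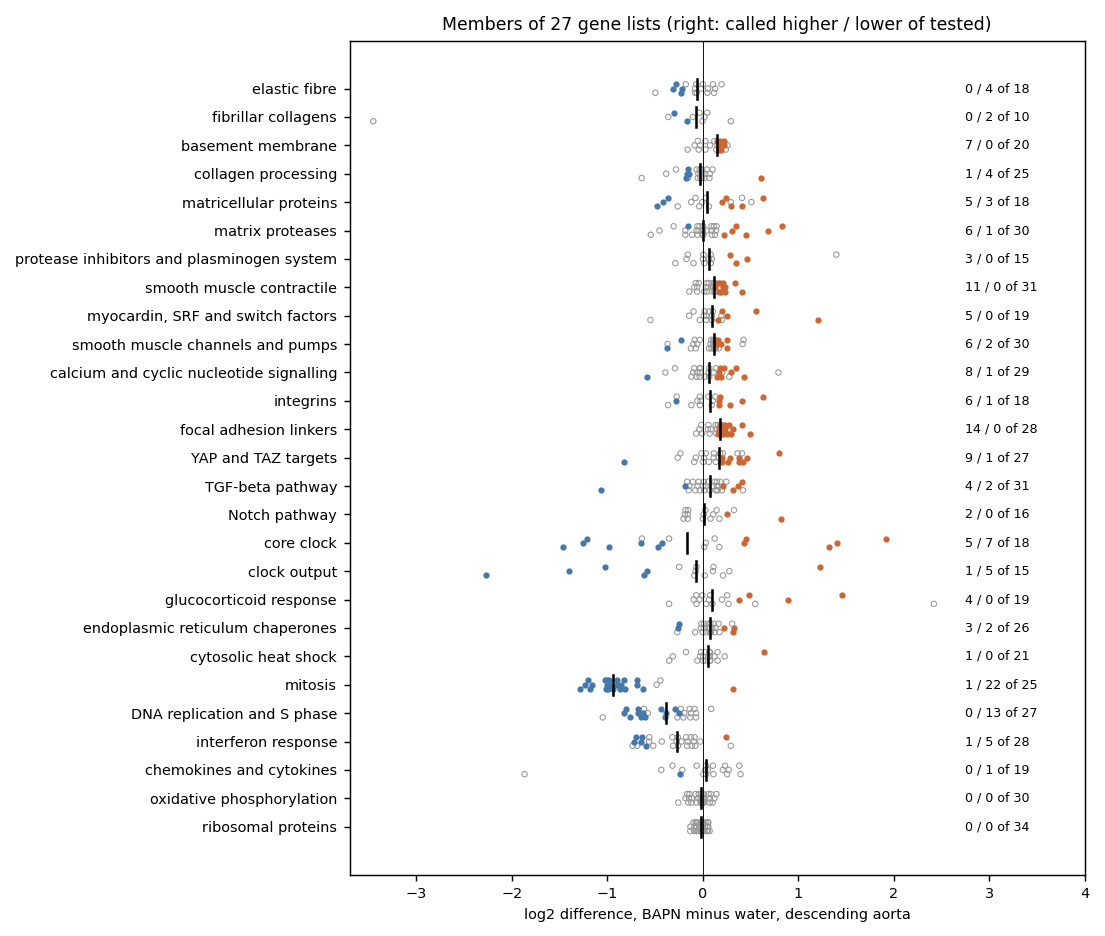
Each row is 1 of 27 gene lists and each point a tested member, placed by its log2 difference, BAPN minus water, in descending aorta. Filled coloured points are called, open points are not, the black bar is the median of the list, and the text at the right counts members called higher / lower of those tested. Mitosis lies almost wholly below 0 (median -0.95), and core clock genes lie far to both sides.

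The clock works as a loop. The dimer of ARNTL with CLOCK or NPAS2 binds E-boxes and switches on the Per, Cry and Nr1d genes and the factors Dbp, Tef and Hlf, which act at D-boxes. The products of Per and Cry then repress the dimer, and those of Nr1d repress Arntl. Levels of these transcripts swing over the day, and the labels give no hour of collection for either group. Of 18 core clock genes 5 rose and 7 fell, and of 15 clock output genes 1 rose and 5 fell. Among all genes tested 10.7% were called. The 200 bases before the start sites of 4 of these genes, from the RefSeq promoter table (GRCm38.p6), are printed as examples that hold these letters. A match describes letters only. Capitals mark an E-box, CACGTG, in the first 3, and a D-box, TTATGTAA or TTACGTAA, in Per3:
Cry1, chr10:85185055-85185254, minus strand: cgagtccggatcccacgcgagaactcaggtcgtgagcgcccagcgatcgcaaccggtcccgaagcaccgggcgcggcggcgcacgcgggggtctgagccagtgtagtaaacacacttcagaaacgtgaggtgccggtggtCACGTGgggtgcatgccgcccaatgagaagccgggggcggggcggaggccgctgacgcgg
Bhlhe41, chr6:145865421-145865620, minus strand: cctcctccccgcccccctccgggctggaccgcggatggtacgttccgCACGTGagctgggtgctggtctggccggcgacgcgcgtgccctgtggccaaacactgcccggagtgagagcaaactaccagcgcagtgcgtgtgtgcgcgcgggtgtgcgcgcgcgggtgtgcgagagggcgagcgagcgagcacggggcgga
Tef, chr15:81802473-81802672, plus strand: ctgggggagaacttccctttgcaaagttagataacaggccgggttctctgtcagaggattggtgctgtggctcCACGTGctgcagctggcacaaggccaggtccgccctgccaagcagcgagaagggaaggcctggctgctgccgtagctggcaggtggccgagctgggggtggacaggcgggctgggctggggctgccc
Per3, chr4:151044666-151044865, minus strand: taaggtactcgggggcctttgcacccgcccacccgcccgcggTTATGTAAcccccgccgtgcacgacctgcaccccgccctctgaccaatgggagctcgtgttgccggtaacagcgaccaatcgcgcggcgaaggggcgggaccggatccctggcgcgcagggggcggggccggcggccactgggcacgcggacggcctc
Counted back from the start, the E-box begins at 60 bases in Cry1, at 153 in Bhlhe41 and at 127 in Tef, and the D-box of Per3 at 158. Per3 holds another at 205 bases, outside the printed stretch. Both strands were searched in windows of 300 bases (250 before the start and 50 after), which were found for 15 of the 18 called genes of both clock lists. An E-box stood in 4 of these, the fourth being Ciart, and in 7.15% of all 32851 windows. A D-box stood in Per3 alone and in 1.06% of all windows. A RORE, the element bound by the products of Nr1d and Rora, was also searched. It stood in 0 of the 15 and in 0.384% of all windows.

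The activators rose. Arntl (ENSMUSG00000055116, chromosome 7, 113207465 to 113314126), which encodes BMAL1, was at 10.3, 8.68, 12, 9.72 and 7.06 CPM with water and 45.6, 32.1, 35.2, 32.9 and 36 CPM with BAPN. All BAPN libraries were far above all water libraries. The log2 difference was 1.92 (SE 0.16, adjusted p = 1.33e-08) and 1.74 within the 7 libraries (adjusted p = 3.99e-05). Npas2, which can stand in for CLOCK, was at 19.2, 25.9, 33.5, 29.2 and 19.8 CPM with water and 79, 65, 56.4, 56.1 and 63.7 CPM with BAPN, also without overlap (1.33, SE 0.15). Clock itself rose from 103 ± 3 to 139.7 ± 8.57 CPM (0.44). The repressor Cry1 rose with them, from 5.07, 4.06, 4.35, 4.35 and 4.17 CPM to 16.3, 10.7, 12.3, 10.9 and 8.19 CPM (1.4, SE 0.15). Its BAPN library 5 was the lowest of the BAPN group and still above every water library. Rora, which activates Arntl, rose by 0.45. Nfil3, a repressor at D-boxes, was at 11.7, 12.7, 26.2, 29.5 and 40.5 CPM with water and 48.3, 56.7, 70.2, 68 and 39.8 CPM with BAPN. Here water library 5 was just above BAPN library 5, and the difference of 1.23 had a wide error (SE 0.28, adjusted p = 0.00438).

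The factors that ARNTL switches on fell in most cases. Dbp (ENSMUSG00000059824, chromosome 7, 45705088 to 45710203) was at 154, 129.8, 129, 155 and 133 CPM with water and 19.5, 24.9, 33.2, 27.7 and 39.6 CPM with BAPN. The water libraries lay close to one another and far above the BAPN libraries, for a difference of -2.27 (SE 0.15, adjusted p = 5.43e-10; -2.3 within the 7 libraries). Per3, a period gene, was at 50.7, 47.1, 38.9, 49.3 and 54.1 CPM with water and 13.5, 16.9, 20.2, 16.1 and 19.9 CPM with BAPN, equally distinct (-1.47, SE 0.12). Hlf fell from 50.4 ± 6.97 to 19.1 ± 1.59 CPM (-1.4) and Tef from 279 ± 23.4 to 138 ± 16.7 CPM (-1.02). Nr1d2 (REV-ERBβ), a repressor of Arntl, fell from 179.7 ± 16.7 to 90.6 ± 14.4 CPM, and Nr1d1 (REV-ERBα) from 177 ± 27.3 to 127 ± 23.4 CPM (-0.47, adjusted p = 0.024). The E-box repressors Bhlhe41 (-1.21) and Bhlhe40 (-0.64) fell, as did Per2 (-0.43), Ciart (-1.25), the tetraspanin Tspan4 (-0.59) and Wee1 (-0.62), a kinase that delays mitosis. Per1 (-0.35, adjusted p = 0.163) and Cry2 (0.031, adjusted p = 0.855) did not pass. The call of Nr1d1 was lost without water libraries 1 or 2 or BAPN libraries 1, 3 or 4 (adjusted p up to 0.0776). Nr1d1, Ciart and Wee1 did not pass within the 7 libraries of lower pseudogene level.

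**Figure D4:**
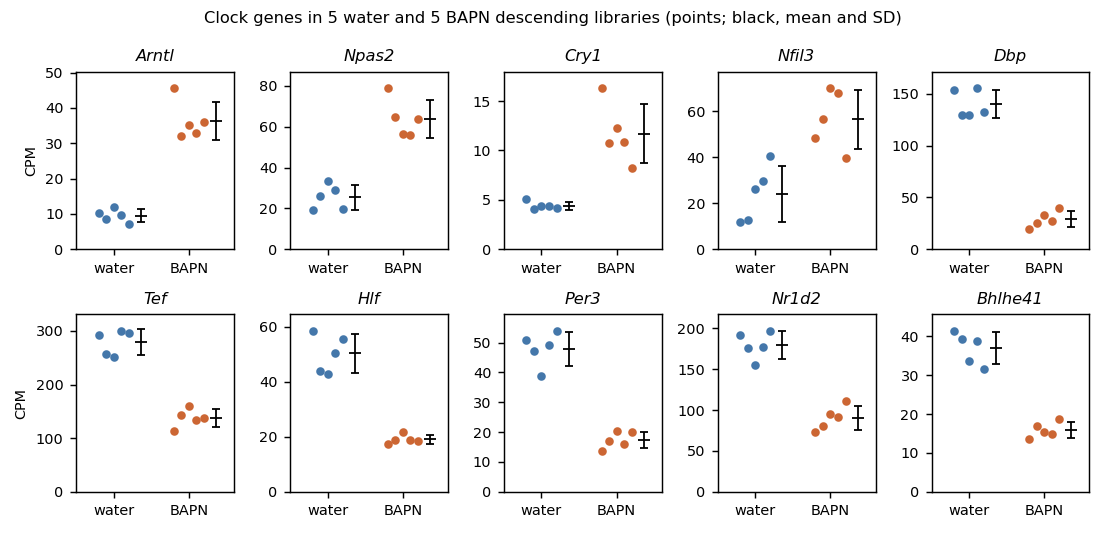
Each panel shows 1 clock gene in the 5 water and 5 BAPN descending libraries as points, in CPM from 0, with mean and SD in black. Arntl, Npas2, Cry1 and Nfil3 are higher with BAPN, and Dbp, Tef, Hlf, Per3, Nr1d2 and Bhlhe41 are lower; of these 10 only Nfil3 overlaps.

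Glucocorticoid-responsive genes changed in part. Adrenal steroids follow a daily rhythm and act through the receptor NR3C1. Of 19 genes 4 rose (median 0.10), beside 6.18% among all genes tested. Zbtb16, a zinc-finger factor, was at 22.3, 35.8, 19.5, 26.3 and 21.2 CPM with water and 62.1, 59.7, 87.6, 69.7 and 64.1 CPM with BAPN, a wide gap (1.46, SE 0.14, adjusted p = 3.67e-07). Fkbp5, a cochaperone that feeds back on the receptor, rose from 22.8 ± 2.56 to 42.3 ± 5.76 CPM (0.89). Mertk, a phagocytic receptor, rose by 0.38 and the cell cycle inhibitor Cdkn1a by 0.48. Tsc22d3 was at 44.7 ± 15.8 and 42.7 ± 11.5 CPM and Sgk1 at 90.9 ± 32 and 86.5 ± 23.5 CPM, and neither of these familiar targets passed. Not called within the 7 libraries was Cdkn1a.

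Cell division genes fell together. Many genes for mitosis carry CHR and CCAAT elements in their promoters, and their transcripts mark cycling cells. Of 25 mitotic genes 22 fell, 1 rose and 2 did not pass, with a median of -0.95, beside 4.54% lower among all genes tested. In the 7 libraries 18 were called lower and 1 higher (median -0.96). The 200 bases before the RefSeq start (GRCm38.p6) of 4 of the genes that fell are printed to show the elements they share, with the CHR letters TTTGAA and the CCAAT letters on either strand in capitals:
Mki67, chr7:135716380-135716579, minus strand: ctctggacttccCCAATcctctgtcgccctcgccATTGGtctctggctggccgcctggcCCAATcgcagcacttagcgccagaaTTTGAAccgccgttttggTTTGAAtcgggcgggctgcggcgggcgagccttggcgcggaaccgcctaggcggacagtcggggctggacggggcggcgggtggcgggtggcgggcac
Top2a, chr11:99024190-99024389, minus strand: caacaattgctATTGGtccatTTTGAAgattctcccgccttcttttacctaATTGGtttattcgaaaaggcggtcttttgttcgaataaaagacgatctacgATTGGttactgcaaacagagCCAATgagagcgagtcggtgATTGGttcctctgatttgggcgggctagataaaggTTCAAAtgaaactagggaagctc
Cdc20, chr4:118437344-118437543, minus strand: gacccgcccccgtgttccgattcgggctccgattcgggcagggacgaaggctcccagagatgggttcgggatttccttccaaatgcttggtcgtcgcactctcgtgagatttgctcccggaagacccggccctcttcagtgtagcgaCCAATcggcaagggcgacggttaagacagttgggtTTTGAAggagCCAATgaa
Kif11, chr19:37376182-37376381, plus strand: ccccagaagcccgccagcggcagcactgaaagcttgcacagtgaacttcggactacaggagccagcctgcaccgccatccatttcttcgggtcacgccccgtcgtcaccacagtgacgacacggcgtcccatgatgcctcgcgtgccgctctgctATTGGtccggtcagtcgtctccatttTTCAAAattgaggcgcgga
In Cdc20 the CHR letters begin 18 bases before the start and CCAAT letters 53 and 8 bases before it, and in Kif11 they begin at 19 and 45 bases. Windows of 300 bases were found for 18 of the 22 genes. CHR letters stood in 13 of these and in 17.9% of all windows, and CCAAT letters in 16 and in 37.4% of all windows. A match describes letters only.

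Mki67, the proliferation antigen (ENSMUSG00000031004, chromosome 7, 135689784 to 135716361), was at 21.1, 20.3, 24, 19.9 and 17.5 CPM with water and 12.4, 8.76, 10.5, 12 and 12.9 CPM with BAPN. All water libraries were above all BAPN libraries, with a difference of -0.86 (SE 0.11, adjusted p = 1.41e-05; -0.95 within the 7 libraries). Top2a, the topoisomerase that untangles chromosomes, was at 19.8, 18.2, 18, 20.1 and 18 CPM with water and 8.35, 6.68, 9.43, 11.6 and 11.1 CPM with BAPN, again without overlap (-0.99, SE 0.14). Cdc20, which activates the anaphase-promoting complex, fell from 8.58 ± 1.12 to 3.79 ± 0.37 CPM (-1.18), and the spindle motor Kif11 from 7.71 ± 0.785 to 3.76 ± 1.02 CPM. Cenpe, a kinetochore motor, fell by 1.29 and Racgap1, of the cytokinesis machinery, by 1.04 on the log2 scale. The member that rose was the actin-binding protein Anln, from 77.8 ± 4.33 to 97.1 ± 7.96 CPM. The checkpoint kinase Bub1b (-0.48, adjusted p = 0.072) and the spindle kinase Aurka (-0.44, adjusted p = 0.0875) did not pass. Of 27 DNA replication genes 13 fell and none rose (median -0.38), among them the transcription factor E2f1 (-0.65), the ribonucleotide reductase subunit Rrm2 (-0.82) and the helicase subunit Mcm2 (-0.39). Within the 7 libraries 4 of them were called (median -0.41), and without 1 descending library at a time between 7 and 13 were. Of the inhibitors, Cdkn1a (p21) rose from 45.2 ± 3.8 to 63.2 ± 5.96 CPM, while Cdkn2c (p18) fell from 28 ± 1.61 to 19 ± 1.1 CPM. The fit of the 7 libraries did not call Cdkn1a.

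Stress and immune lists held scattered changes, beside 10.7% called among all genes tested. Hspa5 (BiP), the main chaperone of the endoplasmic reticulum, was at 490.0, 489, 468, 490.2 and 488 CPM with water and 621, 577, 583, 649 and 620.2 CPM with BAPN. The water libraries were nearly equal and all below the BAPN libraries (0.33, SE 0.04, adjusted p = 4.67e-06). Of 26 genes of these chaperones 3 rose and 2 fell (median 0.074), Hyou1 (0.32) and Dnajc3 (0.22) being the other 2 higher. The 2 lower were Herpud1 and Sec61b. In the list of the unfolded protein and integrated stress response 2 of 22 genes rose and 3 fell (median -0.018). Xbp1, a transcription factor of the unfolded protein response, rose by 0.29, while Atf5 (-0.23), a stress-response factor, and Phgdh (-0.33), which starts serine synthesis, fell. Hsph1, the 1 called of 21 cytosolic heat shock genes, rose from 79.3 ± 23.3 to 123 ± 13.6 CPM with overlapping libraries. Interferon response genes had 5 lower and 1 higher of 28 (median -0.27). None of these calls held in every fit that left 1 descending library out, and within the 7 libraries 1 was called higher and none lower. Cxcl12, a chemokine of stromal cells, fell from 356 ± 16.4 to 302 ± 12.3 CPM and was the only gene called of 19 chemokines and cytokines. Hyou1 did not pass within the 7 libraries of lower pseudogene level.

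Other single genes moved further than most list members. Tcap, titin-cap, was second to Dbp among genes of at least 5 CPM that fell, from 146, 107, 90.6, 106 and 88.2 CPM to 32, 22.9, 33, 27.4 and 38.3 CPM. The groups were well separated (-1.8, SE 0.18, adjusted p = 3.67e-07), and the level was 3.49-fold lower. Ppp1r1b (DARPP-32), a phosphatase inhibitor, fell from 10.2 ± 0.717 to 4.09 ± 1.32 CPM, and Fndc5, the precursor of irisin, from 7.47 ± 1.89 to 3.01 ± 0.607 CPM. Hp, haptoglobin, fell by 1.13 on the log2 scale with overlapping libraries. Ier5, an immediate early gene, rose from 34 ± 5.34 to 63.1 ± 9.9 CPM. Dgkg, a diacylglycerol kinase, rose by 0.99, Tent5b, a poly(A) polymerase family member, by 0.95, Arhgap20, a GTPase-activating protein, by 0.88 and Sema7a, a membrane semaphorin, by 0.87. Vim, vimentin, was among the 10 most abundant called genes and rose from 3406 ± 291 to 4024 ± 273 CPM. The call of Hp was lost without water library 2 (adjusted p = 0.0558). Not called within the 7 libraries were Hp, Dgkg, Sema7a and Vim.

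Ascending aorta was compared to ask whether the response differed by region. There 986 genes were called (6.34%), 534 higher (3.44%) and 452 lower (2.91%). Both regions called 628 genes, all in the same direction, which is 37.7% of the descending and 63.7% of the ascending calls. The labels do not say whether the regions share animals, so their calls may not be independent. The difference between the BAPN effects was tested directly in the same model. With edgeR no gene passed (0.0%; smallest adjusted p = 0.216), and 1070 genes had an unadjusted p under 0.05. DESeq2 called 14 and limma-voom 0. The median SE of this difference was 0.12 on the log2 scale. The smallest p-values belonged to Fndc5, Gm10222, Rpl10a-ps1, Crim1 and Gm10221. None of these 5 was called with edgeR on the filtered counts, while DESeq2 called all 5, as did edgeR with no filter on low counts, and a replicate block within treatment called 4. Fndc5 was at 14.8 ± 3.39 and 14.2 ± 1.97 CPM in ascending water and BAPN libraries, and its effects differed by -1.25 (SE 0.24). Crim1 was at 167 ± 13.7 and 179 ± 6.37 CPM in ascending aorta, and its effects differed by 0.31 (SE 0.067). Gm10222, Rpl10a-ps1 and Gm10221 are pseudogenes or predicted genes, whose reads can be shared with near-identical copies. In descending aorta none of them was called within the 7 libraries. Those libraries were chosen by pseudogene level, so the missing calls cannot tell why the effects differed, which was not tested. The higher pseudogene level was found in 3 water libraries of descending aorta, but in all 5 BAPN libraries and water libraries 4 and 5 of ascending aorta. With this level as a term, 0 genes had a called difference between regions.

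With edgeR on the filtered counts no clock gene had a called difference between regions. The smallest adjusted p was 0.216 in the core list, equal to the smallest over all genes tested, and 0.694 in the output list. Arntl differed by 2.19 in ascending and 1.92 in descending aorta, Dbp by -2.39 and -2.27, and Tcap by -1.63 and -1.8. Lox differed by 0.25 and 0.25. For mitotic genes the median was -0.64 in ascending and -0.95 in descending aorta. Of the 25 genes 23 were more negative in descending aorta, but no member had a called difference (smallest adjusted p = 0.472). Fibrillar collagens had 6 of 10 lower in ascending and 2 in descending aorta, with medians of -0.23 and -0.071, and again no called difference (smallest adjusted p = 0.533).

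**Figure D5:**
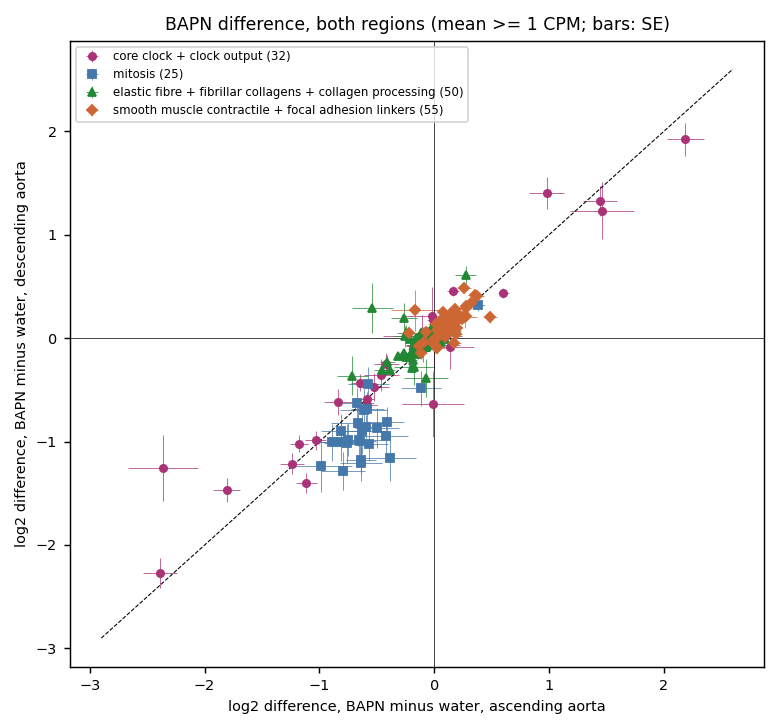
Each point is a gene of 4 groups of lists with a mean of at least 1 CPM, with its log2 difference, BAPN minus water, in ascending aorta (x) against descending aorta (y); bars are SE and the diagonal marks equal differences. The clock genes span the widest range, from Dbp (-2.39, -2.27) to Arntl (2.19, 1.92). Of the 25 mitotic genes tested, drawn here or not, 23 were more negative in descending aorta.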

How the data were processed

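RNA was measured by sequencing of 20 aortic libraries, 5 in each of 4 groups. Per the submitters' processing notes, reads were handled with fastp, STAR 2.5 and HTSeq 0.6.1 on mm10, and the authors deposited raw read counts per gene. The annotation version and the strand setting of counting are not given in the sources used here, so antisense and overlapping genes cannot be separated. Symbols came from GENCODE M21, which matched 54495 of 54532 genes. Groups were taken from the sample titles and the design text.

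Counts were fitted with edgeR 4.0.16 (R 4.3.3), with 4 group terms over all 20 libraries, TMM factors and filterByExpr at a minimum count of 10, leaving 15543 genes and 16 residual degrees of freedom. BAPN and water were compared in each region, and so was the difference of effects. The test was checked on simulated counts. Between BAPN and water in descending aorta it found 45 of 67 simulated 1.25-fold changes (67.2%) and 64 of 67 at 1.5-fold (95.5%). Of its 187 calls there 13 were false. Of simulated differences between regions, 17 of 67 were found at 1.25-fold (25.4%) and 53 of 67 at 1.5-fold (79.1%). There 4 of 136 calls were false. Descending libraries held 16.4 M to 21.5 M counts. DESeq2 1.42.0, limma 3.58.1 with voom, other scalings, filters, blocks and omitted libraries were alternatives. The comparison within 7 libraries fitted these alone.

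The members and gene lists were chosen with earlier results of these data known. Named genes were the 12 called genes with the largest increase and the 12 with the largest decrease at a mean of at least 5 CPM over the 10 descending libraries, the 10 most abundant called genes, up to 5 called genes with the smallest p in each list, Lox, its relatives and Eln, and the 5 smallest p-values of the regional difference. Outside this rule, Clock, Per1, Per2, Cry2, Ciart, Nr1d1, Bhlhe40, Anln, Bub1b, Aurka, Col1a1, Col4a2, Myh11, Ccn1, Ccn2, Tsc22d3, Sgk1 and Tagln were chosen after their values were seen. Replicate numbers were not used as pairs.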

Additional observations from a re-analysis of the deposited data

Results flagged for a closer look

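In 18 of 360 groups of values examined, 1 of the 5 libraries stood further from its group than the 0.71 share of the whole range that Dixon's test allows; chance gives about 1 in 20. The share is the gap to the nearest library divided by the range of the group. Cry1 in water library 1 was at 5.07 CPM against a median of 4.35 CPM, a share of 0.713. For Loxl4, water library 2 stood at 19.8 CPM against a median of 15.8 CPM, a share of 0.73. Cthrc1 in water library 3 was at 19.4 CPM against a median of 17.1 CPM, a share of 0.783. For P2rx1, water library 3 stood at 57.6 CPM against a median of 45.1 CPM, a share of 0.758. Rock2 in water library 3 was at 220.4 CPM against a median of 240.2 CPM, a share of 0.717. For Dll1, water library 5 stood at 9.82 CPM against a median of 7.17 CPM, a share of 0.801. Hspa5 in water library 3 was at 468 CPM against a median of 489 CPM, a share of 0.924. For Uhrf1, water library 4 stood at 4.94 CPM against a median of 6.41 CPM, a share of 0.892.

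Cdc20 in BAPN library 1 was at 4.43 CPM against a median of 3.64 CPM, a share of 0.732. For Acan, BAPN library 4 stood at 43.9 CPM against a median of 36.3 CPM, a share of 0.845. Adamts4 in BAPN library 1 was at 10.1 CPM against a median of 5.10 CPM, a share of 0.727. For Actn1, BAPN library 2 stood at 1186 CPM against a median of 1238 CPM, a share of 0.791. Cacna1c in BAPN library 2 was at 116 CPM against a median of 129 CPM, a share of 0.844. For Sec61b, BAPN library 5 stood at 53.4 CPM against a median of 69.5 CPM, a share of 0.766. Phgdh in BAPN library 3 was at 20.4 CPM against a median of 21.4 CPM, a share of 0.781. For Ifit3, BAPN library 2 stood at 11.9 CPM against a median of 6.37 CPM, a share of 0.814. Slc2a1 in BAPN library 5 was at 40.3 CPM against a median of 46.6 CPM, a share of 0.724. The total count of BAPN library 5 was 21.55 M against a median of 18.27 M, a share of 0.77.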

How the results depend on the processing

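The count of called genes in descending aorta was 1667, and it ranged from 1240 to 1684 when 1 descending library was left out (700 to 985 higher, 532 to 699 lower, 96 to 134 at least 2-fold). Within the 7 libraries of lower pseudogene level it was 430, with 218 higher, 212 lower and 54 at least 2-fold; this fit holds fewer water libraries. The higher genes numbered 629 with the pseudogene level as a term and 623 with descending libraries alone, where the cause was not tested. With the replicate number as a block, 1762 genes were called, and the deviations of same-numbered descending water and BAPN libraries correlated at -0.0278 to 0.167, so the numbers were not taken as pairs. Same-numbered ascending and descending BAPN libraries correlated at 0.064 to 0.106, and 5 of 5 matched best with their own number, a hint from the data and not from the design. The difference between regions had 0 called genes, 41 without a filter on low counts, 14 with DESeq2, 20 with a replicate block within treatment and 0 to 16 with 1 library left out (16 without descending water library 4, 1 without descending BAPN library 5), and the cause was not tested. Loxl1, which was not called (-0.0059), ran from -0.027 (without water library 1) to 0.021 (without water library 3), and was above 0 also without water library 4 (0.011) or BAPN library 5 (0.019). Of 174 named genes that were called, 91 were not called within the 7 libraries, 49 with the pseudogene level as a term, 31 with descending libraries alone, 15 with upper-quartile scaling and 0 with DESeq2, and 57 lost their call without some descending library. Genes of few CPM carry the widest counting error.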

Other observations

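Metabolic and ribosomal lists are given beside the 10.7% called among all genes tested. Of 30 oxidative phosphorylation genes and 34 ribosomal protein genes none was called with edgeR, with medians of -0.02 and -0.02. Outside these lists mt-Nd4, a gene of the mitochondrial genome, was called lower, from 2315 ± 292 to 1958 ± 122 CPM (log2 -0.24, adjusted p = 0.0297). Its call was lost without water libraries 1 or 5 or BAPN libraries 1 or 3. The fit of the 7 libraries did not call mt-Nd4 (-0.098). Of 24 cholesterol synthesis genes 2 rose, of 28 fatty acid and lipid droplet genes 1 rose, and of 28 glycolysis and hypoxia genes 1 rose and 3 fell. Within the 7 libraries of lower pseudogene level none of the glycolysis and hypoxia genes was called, and 1 cholesterol synthesis gene was called, as lower. None of 22 Hox genes was called, and Hoxa7, which marks the descending segment, was at 39.6 CPM with water and 41.1 CPM with BAPN against under 0.5 CPM in every ascending library.

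Summed endothelial, macrophage and fibroblast markers overlapped between the groups. Endothelial markers summed to 1826 to 2161 CPM with water and 1978 to 2366 CPM with BAPN, macrophage markers to 570.1 to 740.0 and 558.7 to 737.4 CPM, and fibroblast markers to 4438 to 4700.2 and 4387 to 5116 CPM. Of 18 endothelial genes 1 rose, of 16 macrophage genes 1 rose, and of 12 fibroblast genes 1 rose and 1 fell. Tagln, a widely used smooth muscle marker, was at 56.4 ± 3.07 CPM with water and 54.1 ± 5.63 CPM with BAPN, beside Acta2 at 11926 ± 693 and 15084 ± 715 CPM. Such a count is low for this marker and may not show its true level. The strand setting and annotation version of counting are not given. Whether reads of Tagln were lost in counting was not tested.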
